A study of Mus musculus with 8 samples.

Results

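A set of 10 genes of iron import and of its control was followed through every library of a hemin experiment in mouse cortical neuron cultures. They are Trf, Tfrc, Steap3, Slc11a2, Slc39a14, Slc25a37, Slc25a28, Aco1, Ireb2 and Fbxl5. They were picked by gene symbol, and make up 10 of the 19417 rows of the deposited expression table, each symbol matching 1 row. The rule names no measured value, but the choice was made with earlier results of these data known. The cells were primary cortical neurons of C57BL/6 mice, kept in vehicle (DMSO), in 10 µM 4-OI, in 50 µM hemin, or in 50 µM hemin together with 10 µM 4-OI. Hemin is an iron-bearing porphyrin, and 4-OI is the itaconate ester 4-octyl itaconate. Each of these 4 groups had 2 libraries, made from total RNA. The labels give 24 h under age, which is likely the time of treatment, and no other age. They name no culture or animal for a library, so the p-values below describe the spread between these libraries, which may be technical.

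Iron bound to transferrin enters a cell through the transferrin receptor, is reduced by a STEAP ferrireductase in the endosome and leaves the endosome through the divalent metal transporter; mitoferrins then carry it into mitochondria. The iron regulatory proteins, encoded by Aco1 and Ireb2, bind RNA hairpins called iron responsive elements when iron is scarce. Bound to hairpins in a 3′ untranslated region (UTR) they protect the transcript, as in the transferrin receptor, and bound to a hairpin in a 5′ UTR they block translation, as in ferritin. With ample iron, the first protein takes up an iron-sulfur cluster and stops binding RNA, and the second is marked for breakdown by the ubiquitin ligase subunit FBXL5. These steps act on proteins and on RNA binding, and the libraries measured RNA levels only.

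Of the 10 genes, 2 carry such a hairpin in their 3′ UTR in the GENCODE M21 transcripts (build GRCm38), and these hairpins are printed because they are the kind of element that the iron regulatory proteins are known to bind. Tfrc, the transferrin receptor, has 4 in the 2458 bases of the 3′ UTR of Tfrc-201, numbered from the first base of that UTR. Slc11a2, the divalent metal transporter, has 1 in the 2650 bases of the 3′ UTR of Slc11a2-205, with an additional unpaired base on the 3′ side of the stem. Capitals mark the unpaired C that opens the upper stem and the 6 bases of the loop. All lines read 5′ to 3′.
Tfrc 3′ UTR 883 to 911: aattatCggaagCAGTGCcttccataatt
Tfrc 3′ UTR 1262 to 1290: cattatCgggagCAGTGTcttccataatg
Tfrc 3′ UTR 1327 to 1355: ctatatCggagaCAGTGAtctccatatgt
Tfrc 3′ UTR 1374 to 1402: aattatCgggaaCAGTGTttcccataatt
Slc11a2 3′ UTR 32 to 61: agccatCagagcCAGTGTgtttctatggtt

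The same search in 5′ UTRs found a hairpin in Fth1 and Ftl1, the ferritin chains that store iron, and in Slc40a1, the iron exporter ferroportin. It also found a paired hairpin in Alas2 and one with an unpaired base in Epas1, which are not printed. The hairpins of Fth1, Ftl1 and Slc40a1 are printed for contrast, since these genes carry the loop at the other end of the transcript.
Fth1 5′ UTR 87 to 115: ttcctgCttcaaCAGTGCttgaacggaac
Ftl1 5′ UTR 78 to 106: gtcttgCttcaaCAGTGTttgaacggaac
Slc40a1 5′ UTR 90 to 118: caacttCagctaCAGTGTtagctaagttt

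The search asked for a C, 5 bases, the loop CAGTGN and 5 bases pairing with the former, with at least 4 of 6 pairs in the lower stem, on the transcribed strand only. This form was found in the 3′ UTR of 17 of 21028 genes (0.0808%) and in the 5′ UTR of 6 of 20899 (0.0287%). With 1 unpaired base allowed on the 3′ side, the form of Slc11a2, the numbers were 34 (0.162%) and 14 (0.067%). A match is a description of the letters and was not tested for binding. The Tfrc hairpins lie in 1 of its 3 annotated coding transcripts, the reference transcript of the deposited row. The Slc11a2 hairpin lies in 1 of 6, and the deposited row of Slc11a2 joins 2 reference transcripts, 1 with the hairpin and 1 without, so its value sums both. The rows of Tfrc and Slc11a2 also hold 1 additional transcript each, which was not searched and enters the value. No hairpin of either form was found in the annotated transcripts of the other 8 genes.

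Levels are in FPKM, in which fragments are divided by transcript length and by the size of the library, so they are per length and may be set side by side between genes. With DMSO the order of the mean levels was Tfrc at 43.9 FPKM, Ireb2 at 27.9, Fbxl5 at 18.8, Aco1 at 17.5, Slc11a2 at 13.95, Slc25a28 at 12.5, Trf at 4.64, Slc39a14 at 4.03, Slc25a37 at 2.29 and Steap3 at 0.65. Trf and Slc39a14 were neighbours in that order that did not differ beyond their spread, since 1 library of each read 4.08. The order was the same with 4-OI, where Slc11a2 and Slc25a28 also overlapped.

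With hemin the order began with Tfrc at 30.9 FPKM, followed by Ireb2 at 21.3, Fbxl5 at 19.6, Trf at 19.2, Slc25a28 at 16.4 and Aco1 at 16.1. No neighbours from Ireb2 down to Aco1 differed beyond their spread. Slc11a2 at 11.1, Slc25a37 at 8.78, Slc39a14 at 6.77 and Steap3 at 3.40 came last. With hemin plus 4-OI the order was Tfrc at 35.4, Ireb2 at 23.7, Fbxl5 at 18.6, Aco1 at 16.5, Slc25a28 at 15.4, Trf at 11.3, Slc11a2 at 9.60, Slc25a37 at 7.89, Slc39a14 at 5.93 and Steap3 at 1.80, and no neighbours overlapped. Tfrc led and Steap3 closed the order in all 4 groups, and Slc25a37 stood above Slc39a14 in both groups with hemin and below it in both without.

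Across the series the estimated depth was 9100000 to 10800000 fragments a library. Libraries with hemin separated from those without on a first principal component holding 84.4% of the variance. Hemin replicate 1 stood apart on the next, with a score of 36.49 against −0.95 to 3.02 in the libraries without hemin. The other libraries with hemin lay on the opposite side, at −14.95 to −12.39. Summed over 8 neuron markers, levels were 2231 to 2402 FPKM without hemin and 636 to 873 with it, and 5 of the 8 were lower and 1 higher for hemin against DMSO. Most of the fall in the sum was Tubb3, a neuronal tubulin, at 1121 to 1179 FPKM without hemin and 63.6 to 80.3 with it. Snap25, a synaptic vesicle fusion protein, was at 105 to 120.0 FPKM without hemin, at 75.9 in Hemin replicate 1 and at 111 to 116 in the other 3 hemin libraries. The 8 astrocyte markers summed to 158 to 165 and 333 to 842, the 9 microglia markers to 55.1 to 97.5 and 126 to 396, and the 6 fibroblast markers to 7.60 to 9.89 and 21.1 to 43.2. Of these, 8, 8 and 5 were tested, and 8, 7 and 5 were higher in the same comparison. The sums of the 5 markers of endothelium were 0.85 to 1.24 without hemin and 8.83 to 13.0 with it (1 tested, 1 higher). Most of that rise was Pecam1, at 0.16 to 0.36 FPKM without hemin and 6.61 to 10.34 with it. The other endothelium markers did not exceed 1.16 in any library. The 6 red blood cell markers summed to 2.19 at most in any library, with Hbb-b1 and Alas2 at 0 throughout. In bulk libraries, fewer cells of a type and less RNA per cell cannot be told apart, and the part of these shifts in the results below was not tested.

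Under hemin alone, genes that bring iron to and into the cell or the mitochondrion moved in both directions. Trf, Slc39a14, Slc25a37, Slc25a28 and Steap3 were higher, and Tfrc and Ireb2 were lower, by limma at an adjusted p under 0.05, which makes 5 higher and 2 lower of 10. Slc11a2, Aco1 and Fbxl5 did not pass. Over all 13746 genes tested 61.3% were called in this comparison, 38.7% higher and 22.6% lower, so the 7 of 10 members lie near the share of all genes. Their median log2 fold change was 0.21, against 0.19 for all genes. Steap3 reached the lower limit of 1 FPKM only in libraries with hemin, so a call for it had to be a rise. Of the other 9 genes, 4 were higher and 2 lower. Median-of-ratios scaling moved the median of all genes from 0.19 to −0.01 and the share of calls that were higher from 63.1% to 48.8%, and the call of Slc25a28 ended with it.

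**Figure D1:**
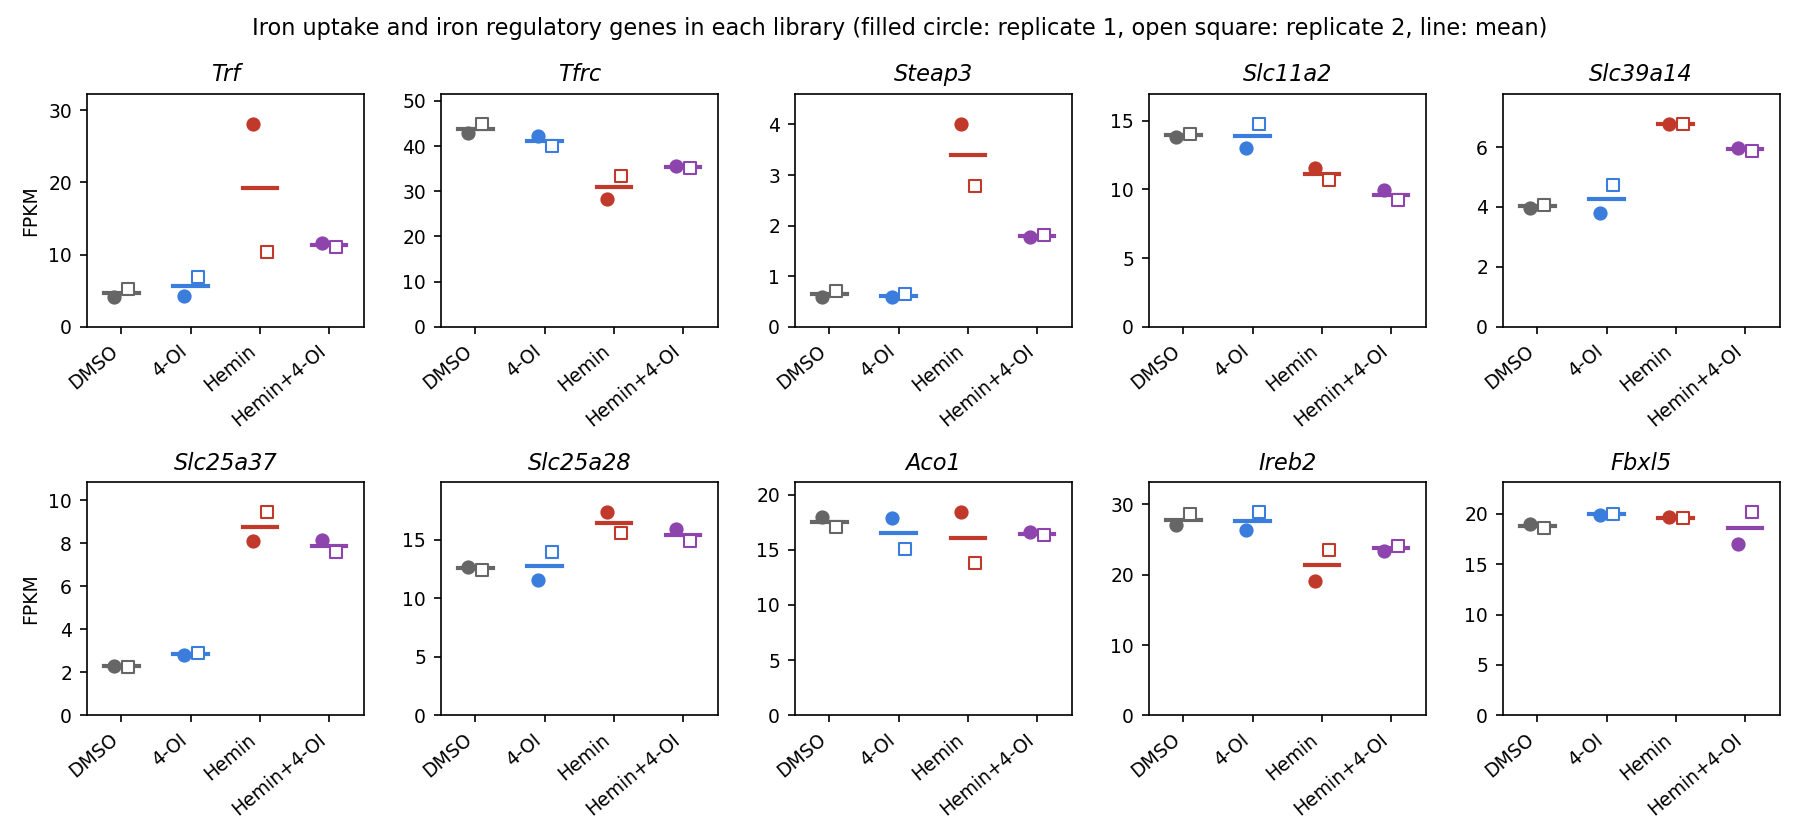
FPKM of each of the 10 genes (vertical axes, each starting at 0) in the DMSO, 4-OI, Hemin and Hemin+4-OI groups; filled circles are replicate 1, open squares replicate 2 and lines the mean of 2 libraries. Tfrc, Ireb2 and Slc11a2 sit lower in all 4 libraries with hemin, Trf, Steap3, Slc39a14, Slc25a37 and Slc25a28 sit higher, and Aco1 and Fbxl5 overlap; Hemin replicate 1 stands apart for Trf at 28.1 FPKM.

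Setting all 4 libraries with hemin against all 4 without, the levels of 8 of the 10 genes did not overlap, 5 of them higher and 3 lower. The 5 include Steap3, which entered the test only through libraries with hemin. Among all genes tested, 40.8% lay wholly higher and 26.7% wholly lower with hemin.

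Trf encodes transferrin, the iron carrier that binds the receptor, and in the brain it is made mainly by oligodendrocytes and the choroid plexus. It read 4.08 and 5.19 FPKM in the DMSO pair, 4.32 and 6.91 in the 4-OI pair, 28.09 and 10.32 in the Hemin pair, and in the Hemin+4-OI pair 11.62 and 11.07. All 4 libraries with hemin were above all 4 without, and Hemin replicate 1 was 2.55 times the mean of the other 3 libraries with hemin. The log2 fold change on FPKM + 1 was 1.69 ± 0.39 (SE; limma adjusted p = 0.00553), or 3.24-fold, for hemin against DMSO. It was 1.01 without Hemin replicate 1 and 2.38 without Hemin replicate 2, with adjusted p-values of 0.00375 and 2.81e-05.

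The markers of the cells known for Trf did not share 1 pattern. The 11 markers of the oligodendrocyte lineage summed to 36.6 to 51.2 FPKM without hemin, 130.3 in Hemin replicate 1 and 67.4 to 67.8 in the other 3 libraries with hemin. Of the 11, only 7 were tested, and 5 of the 7 were higher for hemin against DMSO. Olig1 led this sum at 64.5 FPKM in Hemin replicate 1. The myelin gene Mbp was at 2.03 to 3.78 FPKM in all 8 libraries, and Mag and Mobp did not exceed 0.47. Choroid plexus markers, nearly all of it Ttr, summed to 76.9 and 82.3 in the DMSO pair, 43.2 and 51.7 in the 4-OI pair, 159.5 and 175.7 in the Hemin pair and 77.6 and 89.3 in the Hemin+4-OI pair. Of the 7, only 3 were tested, and all 3 were higher for hemin against DMSO. For this list 1 library with hemin lay inside the range without it. Whether these cells carry the Trf difference was not tested.

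Tfrc encodes the transferrin receptor, and its transcript carries the 4 hairpins printed above. In the DMSO pair it was at 42.86 and 44.90 FPKM, in the 4-OI pair at 42.33 and 40.06, in the Hemin pair at 28.30 and 33.40, and in the Hemin+4-OI pair at 35.54 and 35.16. Every library with hemin was below every library without it, and Hemin replicate 1 was the lowest of all. For hemin against DMSO it fell by 0.50 ± 0.10 on the log2 scale, that is, to 0.708 of the DMSO value on FPKM + 1 (SE; limma adjusted p = 0.00345). The fall was −0.38 without Hemin replicate 1 and −0.61 without Hemin replicate 2, and it passed the threshold in all 17 alternative settings, with adjusted p-values up to 0.0356. The neuron marker sum was lower in the same libraries, and the part of that in the Tfrc difference was not tested.

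Steap3 encodes the endosomal ferrireductase. It read 0.59 and 0.71 FPKM in the DMSO pair, 0.60 and 0.64 in the 4-OI pair, 4.01 and 2.79 in the Hemin pair, and in the Hemin+4-OI pair 1.78 and 1.81. These levels correspond to an estimated 21 to 27 fragments in libraries without hemin and 65 to 158 with it, so they are the thinnest of the 10 genes. The levels formed 3 separate steps, with the hemin pair highest, the pair with both compounds between and the 4 others lowest. For hemin against DMSO the log2 fold change was 1.40 ± 0.18 (SE; limma adjusted p = 0.000354), and the ratio of mean FPKM was 5.23. The log2 value is smaller because 1 was added to each FPKM.

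Slc11a2 encodes the divalent metal transporter that takes iron out of the endosome. In the DMSO pair it was at 13.83 and 14.07 FPKM, in the 4-OI pair at 13.05 and 14.77, in the Hemin pair at 11.58 and 10.70, and in the Hemin+4-OI pair at 9.95 and 9.25. All 4 libraries with hemin were below the others, and the pair with both compounds was the lowest. For hemin against DMSO the log2 fold change was −0.30 ± 0.12 (SE; 95% interval −0.57 to −0.03) with a limma adjusted p of 0.0521, which missed the threshold. It passed under 5 of 17 alternatives, among them median-of-ratios scaling (−0.51, adjusted p = 0.00445) and without Hemin replicate 1 (−0.35, adjusted p = 0.0192).

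Slc39a14 encodes ZIP14, a surface transporter of iron that is not bound to transferrin. It read 3.97 and 4.08 FPKM in the DMSO pair, 3.80 and 4.74 in the 4-OI pair, 6.77 and 6.76 in the Hemin pair, and in the Hemin+4-OI pair 5.97 and 5.88. Both Hemin libraries were the highest and both with hemin plus 4-OI came next, with no overlap with the rest. It rose by a log2 fold change of 0.63 ± 0.14 for hemin against DMSO (SE; limma adjusted p = 0.00549). The call ended with quantile normalization, at 0.33 with an adjusted p of 0.0674.

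The mitoferrins Slc25a37 (mitoferrin 1) and Slc25a28 (mitoferrin 2) carry iron across the inner mitochondrial membrane. Slc25a37 is known from developing red blood cells and Slc25a28 from most other cells. In the DMSO pair Slc25a37 was at 2.32 and 2.26 FPKM, in the 4-OI pair at 2.81 and 2.91, in the Hemin pair at 8.11 and 9.44, and in the Hemin+4-OI pair at 8.15 and 7.62. Its log2 fold change for hemin against DMSO was 1.57 ± 0.14 (SE; limma adjusted p = 7.07e-05), or 2.96-fold, the lowest adjusted p of the 10 genes. Hemin replicate 1 lay inside the range of the other libraries with hemin, at 0.965 of their mean. The red blood cell markers Hbb-b1 and Alas2 were at 0 in all 8 libraries.

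In the DMSO pair Slc25a28 was at 12.66 and 12.41 FPKM, in the 4-OI pair at 11.57 and 13.96, in the Hemin pair at 17.31 and 15.53, and in the Hemin+4-OI pair at 15.94 and 14.89. The libraries with hemin were all higher, by a smaller step than for Slc25a37. For hemin against DMSO the log2 fold change was 0.36 ± 0.12 (SE; limma adjusted p = 0.0335). This call held in 7 of 17 alternatives. Among those that ended it were median-of-ratios scaling (0.15, adjusted p = 0.305) and leaving out Hemin replicate 1 (0.29, adjusted p = 0.0592), either DMSO library (adjusted p = 0.118 and 0.142) or either Hemin+4-OI library (0.0604 and 0.06).

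The ratio of Slc25a37 to Slc25a28 within a library, in which library scaling cancels, was 0.183 ± 0.00081 (SD, n = 2) with DMSO and 0.226 ± 0.024 with 4-OI. It was 0.538 ± 0.099 with hemin (0.469 and 0.608) and 0.512 ± 0.00033 with hemin plus 4-OI. All 4 libraries with hemin had a higher ratio than all 4 without, and Slc25a28 stayed the more abundant of the pair throughout. The ratio of Ireb2 to Aco1 was 1.60 ± 0.13 with DMSO, 1.69 ± 0.31 with 4-OI, 1.37 ± 0.47 with hemin and 1.44 ± 0.047 with hemin plus 4-OI. The 2 Hemin libraries spanned 1.04 to 1.70 and overlapped every other group, and the DMSO and 4-OI pairs overlapped. The Hemin+4-OI pair, at 1.409 and 1.476, lay below the DMSO pair (1.504 and 1.686). It also lay, narrowly, below the 4-OI pair (1.477 and 1.910).

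**Figure D2:**
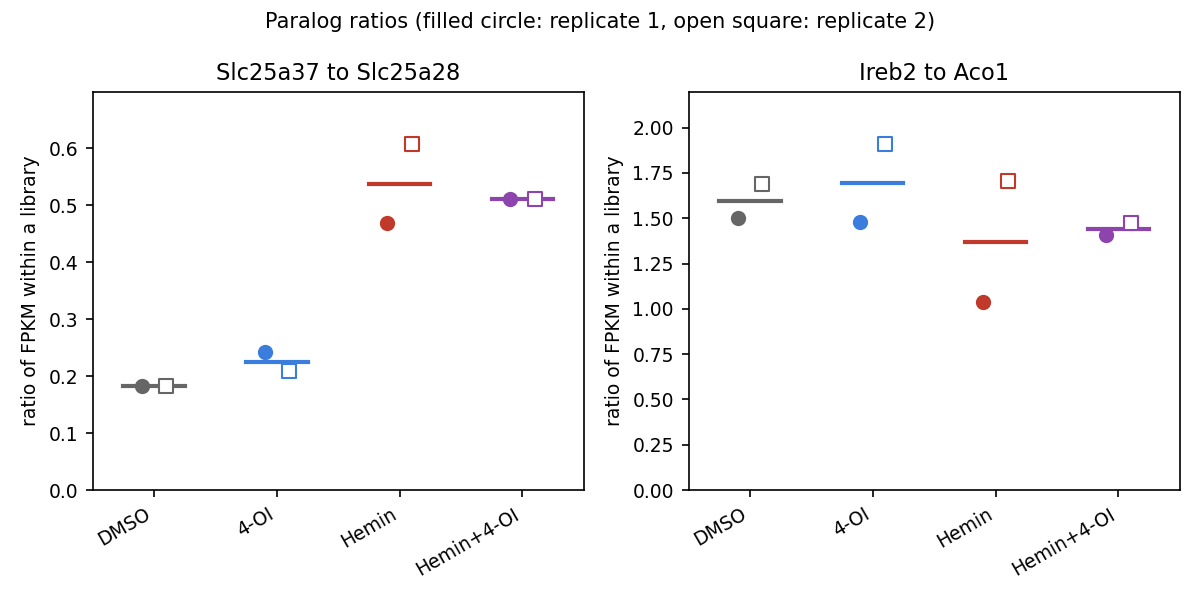
Ratio of FPKM within a library (vertical axes from 0) for Slc25a37 to Slc25a28 (left) and Ireb2 to Aco1 (right) in the 4 groups; filled circles are replicate 1, open squares replicate 2 and lines the mean. The mitoferrin ratio is 0.469 to 0.608 in the Hemin libraries against 0.183 with DMSO. For the iron regulatory proteins the Hemin pair overlaps every other group, and the Hemin+4-OI pair lies below the DMSO and 4-OI pairs.

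Aco1 encodes cytosolic aconitase, which is iron regulatory protein 1 when it lacks its iron-sulfur cluster. In the DMSO pair it was at 17.96 and 17.02 FPKM, in the 4-OI pair at 17.87 and 15.11, in the Hemin pair at 18.38 and 13.82, and in the Hemin+4-OI pair at 16.61 and 16.30. The 2 Hemin libraries were the highest and the lowest of the series. The log2 fold change for hemin against DMSO was −0.13 ± 0.15 (95% interval −0.46 to 0.21; limma adjusted p = 0.482). It was −0.32 without Hemin replicate 1 (adjusted p = 0.0299) and 0.07 without Hemin replicate 2 (adjusted p = 0.596), so the 2 Hemin libraries gave it opposite signs.

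Ireb2 encodes iron regulatory protein 2. It read 27.01 and 28.70 FPKM in the DMSO pair, 26.39 and 28.86 in the 4-OI pair, 19.08 and 23.55 in the Hemin pair, and in the Hemin+4-OI pair 23.41 and 24.06. All 4 libraries with hemin were lower than all 4 without, and Hemin replicate 1 was the lowest. It fell by 0.38 ± 0.12 on the log2 scale for hemin against DMSO (SE; limma adjusted p = 0.0239). The value was −0.23 without Hemin replicate 1 (adjusted p = 0.0376). The call ended without DMSO replicate 1 (adjusted p = 0.0733), without DMSO replicate 2 (0.136) and in a fit of the 2 groups alone (0.0875).

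Fbxl5 encodes the iron-sensing subunit of the ligase that marks iron regulatory protein 2. In the DMSO pair it was at 18.97 and 18.55 FPKM, in the 4-OI pair at 19.85 and 20.00, in the Hemin pair at 19.68 and 19.53, and in the Hemin+4-OI pair at 17.04 and 20.12. The groups with and without hemin overlapped. The log2 fold change for hemin against DMSO was 0.06 ± 0.11 (95% interval −0.19 to 0.31; limma adjusted p = 0.647), and its sign turned under median-of-ratios scaling (−0.16), rescaling to TPM (−0.06) and quantile normalization (−0.0021).

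Hemin replicate 1 differed most from the other 3 libraries with hemin in Trf and Steap3, at 2.55 and 1.89 times their mean. Ireb2 at 0.806 and Tfrc at 0.816 of that mean lay on the low side. The marker sums of this library stood at 3.06 times the mean of the other 3 for microglia, 2.44 for astrocytes, 1.93 for the oligodendrocyte lineage, 1.89 for fibroblasts and 0.747 for neurons. Slc25a37 at 0.965 and Fbxl5 at 1.04 were close to the other 3. The median absolute log2 difference between the libraries of a pair, over all genes, was 0.304 in the Hemin pair and 0.090 to 0.121 in the other 3 pairs. Over the 10 genes it was 0.214 in the Hemin pair and 0.049 to 0.146 in the other 3. Without Hemin replicate 1, 8 members were called for hemin against DMSO, 4 higher and 4 lower, where 68.1% of all genes were called (40.8% higher and 27.3% lower).

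**Figure D3:**
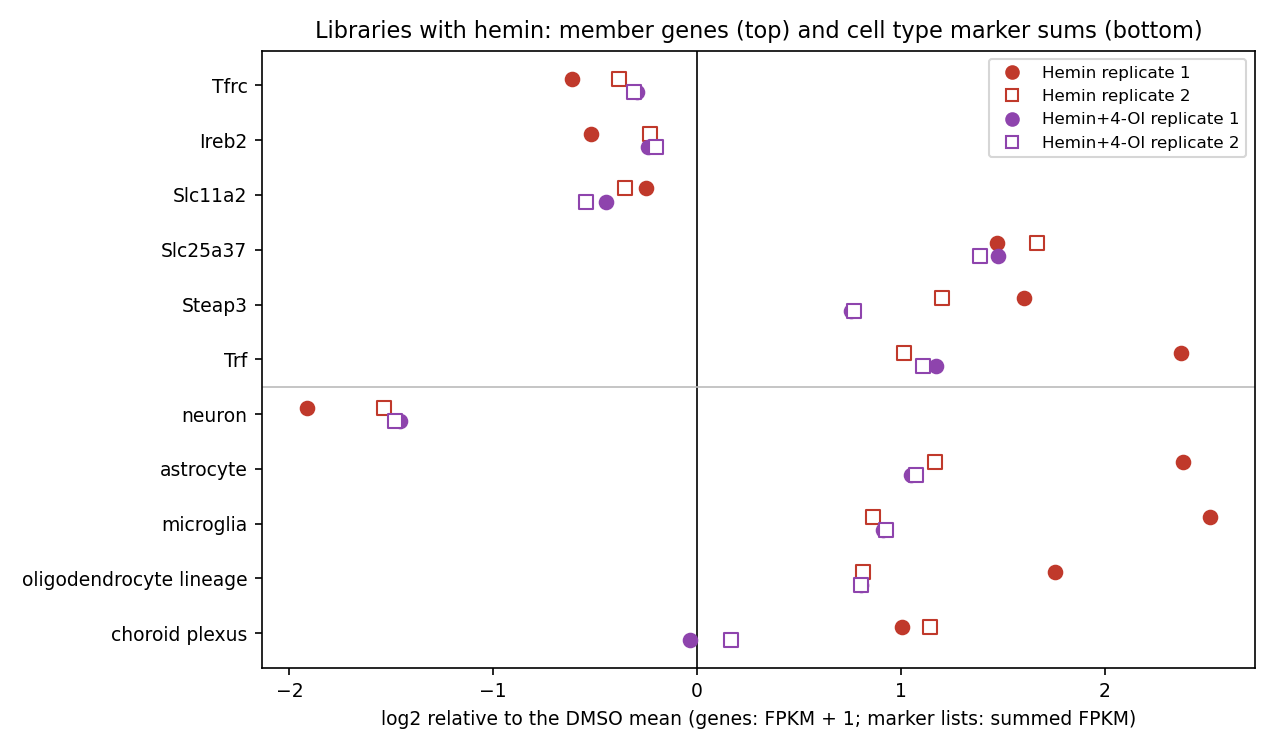
Each library with hemin relative to the DMSO mean, on a log2 scale (horizontal axis), for 6 of the genes (FPKM + 1) and for the summed FPKM of 5 marker lists; filled circles are replicate 1 and open squares replicate 2. Hemin replicate 1 is apart for Trf, astrocyte, microglia and oligodendrocyte lineage markers, and within their range for Slc25a37.

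In the presence of 4-OI, hemin was compared with 4-OI alone, on libraries that share none with the comparison above; both come from 1 fit with 1 pooled estimate of the spread. Slc25a37, Steap3 and Slc39a14 were higher and Slc11a2 was lower, 3 and 1 of 10, where 57.5% of all genes were called (33.3% higher and 24.2% lower). Steap3 entered the test only through libraries with hemin, so its rise here is not independent of the filter either. The share of the members is below that of all genes. Their median log2 fold change was 0.13, as for all genes. With median-of-ratios scaling the share of calls that were higher was 47.8% in place of 57.9%.

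Slc25a37 rose by a log2 fold change of 1.20 ± 0.14 (SE; limma adjusted p = 0.000235), and this passed in all 17 alternatives. Steap3 rose by 0.79 ± 0.18 (adjusted p = 0.00652), a call that ended with quantile normalization (0.38, adjusted p = 0.0964). Slc11a2 fell by 0.49 ± 0.12 (adjusted p = 0.00768), and its call ended without 4-OI replicate 2 (adjusted p = 0.0603) and without Hemin+4-OI replicate 2 (0.0624). Slc39a14 rose by 0.40 ± 0.14 (adjusted p = 0.0412) and kept its call in 7 of 17 alternatives. It lost the call without either DMSO library (adjusted p = 0.0773 and 0.0775), without 4-OI replicate 1 (0.224), without either Hemin+4-OI library (0.155 and 0.139) and under median-of-ratios scaling (0.127).

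Tfrc, the receptor with 4 hairpins, had a log2 fold change of −0.21 ± 0.10 here (95% interval −0.45 to 0.02; limma adjusted p = 0.106). Ireb2 stood at −0.21 ± 0.12 (adjusted p = 0.163), Slc25a28 at 0.26 ± 0.12 (0.107) and Trf at 0.93 ± 0.39 (0.0694). For these 4 genes the 2 groups did not overlap (49% of all genes lay wholly higher and 36.1% wholly lower), and 0 of them passed. The wide Hemin pair enters the pooled spread although it is no side of this comparison. Without Hemin replicate 1, or without Hemin replicate 2, all 4 passed and 8 members were called, 5 higher and 3 lower, against 72.5% and 72.4% of all genes (42% and 41.9% higher, 30.5% lower in both). For Tfrc the adjusted p was then 0.00934 and 0.00983, and for Trf 0.00176 and 0.00175. Aco1 (0.0016 ± 0.15, adjusted p = 0.994) and Fbxl5 (−0.10 ± 0.11, adjusted p = 0.451) were the members that passed in neither.

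**Figure D4:**
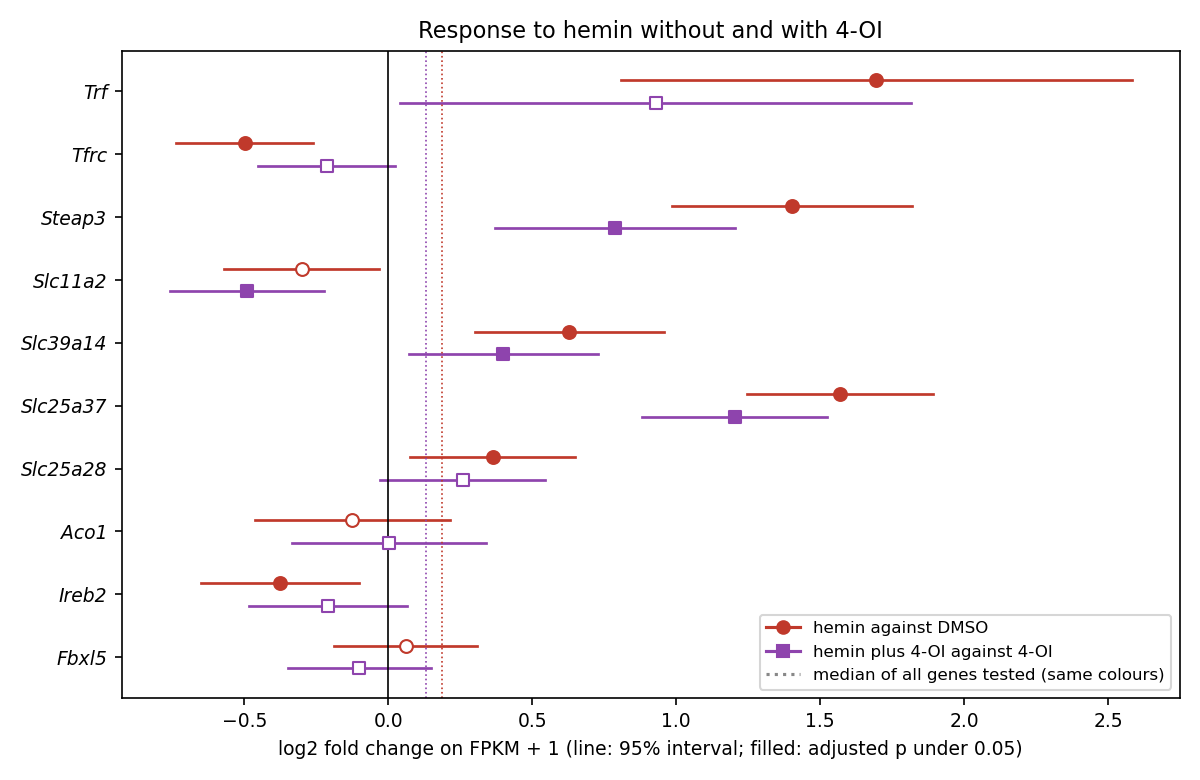
Log2 fold change on FPKM + 1 (horizontal axis) of each of the 10 genes for hemin against DMSO (circles) and hemin plus 4-OI against 4-OI (squares); lines are 95% intervals, filled symbols have a limma adjusted p under 0.05, and dotted lines mark the median of all genes tested, 0.19 and 0.13. Slc25a37, Steap3 and Slc39a14 are filled and to the right in both, Tfrc and Ireb2 are filled and to the left for hemin against DMSO only, a difference that the interaction did not call.

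4-OI alone, set against the same DMSO libraries as hemin, changed 0 of the 10 genes and 0% of all 13746 genes by limma; 0 members and 179 genes had an unadjusted p under 0.05. The log2 fold changes ran from −0.09 for Tfrc to 0.23 for Slc25a37, and all adjusted p-values were 1. Slc25a37 was at 2.81 and 2.91 FPKM with 4-OI against 2.32 and 2.26 with DMSO, so the pairs did not overlap, but the 95% interval of the log2 fold change was −0.09 to 0.55. Both 4-OI libraries were also above both DMSO libraries for Fbxl5 and below both for Tfrc, where 20.2% of all genes lay wholly higher and 14.9% wholly lower.

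Whether 4-OI altered the levels under hemin was asked by setting hemin plus 4-OI against hemin, which shares its libraries with the comparisons above. Again 0 of the 10 genes and 0% of all genes were called by limma, and 1 member and 1209 genes had an unadjusted p under 0.05. That member was Steap3, which stood at 1.78 and 1.81 FPKM against 4.01 and 2.79 with hemin alone, a log2 fold change of −0.64 ± 0.18 (95% interval −1.06 to −0.22; limma adjusted p = 0.556). Trf stood at −0.56 ± 0.39 (adjusted p = 0.63) and Tfrc at 0.20 ± 0.10 (95% interval −0.04 to 0.43; adjusted p = 0.576). Both Hemin+4-OI libraries were above both Hemin libraries for Tfrc and below both for Slc39a14, Steap3 and Slc11a2, where 14.4% of all genes lay wholly higher and 20.2% wholly lower.

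These values rest on which Hemin library is kept. With Hemin replicate 1 as the only Hemin library, assumed to vary like the other groups, 4 members passed among 32.9% of all genes (13.9% higher and 19% lower). Tfrc (0.31, limma adjusted p = 0.0132) and Ireb2 (0.30, adjusted p = 0.0294) were higher with 4-OI, and Steap3 (−0.84, adjusted p = 0.00823) and Trf (−1.24, adjusted p = 0.00535) were lower. With Hemin replicate 2 as the only one, 0 members and 5 genes (0.0369%) passed by limma, and Trf stood at 0.12. The test of the difference between the 2 hemin responses, the interaction, called 0 members and 0% of all genes by limma, with 1 member and 689 genes at an unadjusted p under 0.05. Steap3 had an interaction of −0.62 ± 0.26, Trf of −0.77 ± 0.55, Slc25a37 of −0.37 ± 0.20 and Tfrc of 0.28 ± 0.15, each with an adjusted p of 0.854. Without Hemin replicate 2 the interaction called 3 members, Tfrc (0.40), Steap3 (−0.82) and Trf (−1.45), among 19% of all genes (7.4% higher and 11.6% lower).

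The remaining genes of these pathways were taken from lists chosen by function. Of 19 other genes of the transferrin cycle, ferric reduction and iron entry, 14 were tested, and for hemin against DMSO 10 were higher and 2 lower by limma (61.3% of all genes called), with a median log2 fold change of 1.09 (0.19 for all genes). Of the 14, 3 (Hfe, Steap1 and Frrs1) entered only through libraries with hemin, and the 10 higher and the median include them. Of the other 11, 7 were higher and 2 lower, where 38.7% of all genes were higher and 22.6% lower. Snx3, a sorting nexin that recycles the transferrin receptor, rose from a mean of 83.3 to 133.3 FPKM (log2 fold change 0.67 ± 0.09, adjusted p = 0.000425). Bmp6, the ligand that drives hepcidin in the liver, rose by 1.41 ± 0.19 (adjusted p = 0.000438) and Steap1, a relative of Steap3, by 1.51 ± 0.21 (adjusted p = 0.000456). Leaving out Hemin replicate 1 gave 8 higher and 2 lower, where 68.1% of all genes were called (40.8% higher and 27.3% lower). The receptor's relative Tfr2, the coreceptor Hjv, the transporter Slc39a8 and Hamp were below the level tested. With 4-OI present, 6 were higher and 1 lower of 14 (57.5% of all genes called, 33.3% higher and 24.2% lower).

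Partners of FBXL5 in its ligase, and factors that load iron-sulfur clusters in the cytosol, gave 0 higher and 5 lower of 13 under hemin, with a median of −0.16. Among all genes 61.3% were called, 38.7% higher and 22.6% lower, with a median of 0.19. The share of this list called in either direction was below that of all genes, and the share called lower was above it. This difference was not tested. Rbx1, the ring finger subunit of the ligase, fell to 49.8 and 42.9 FPKM from 74.5 and 75.5 (log2 fold change −0.69 ± 0.09, limma adjusted p = 0.000483). Ciapin1 and Ciao1, which act in cluster assembly, fell by 0.65 ± 0.13 (adjusted p = 0.00253) and 0.47 ± 0.12 (0.00804). The numbers without Hemin replicate 1 were 1 higher and 6 lower, where 68.1% of all genes were called (40.8% higher and 27.3% lower). In the presence of 4-OI they were 0 and 5, where 57.5% of all genes were called (33.3% higher and 24.2% lower).

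Among 8 other transcripts known for an iron responsive element, Alas2 was at 0 in every library. Of the 7 tested, 5 were higher and 1 lower with hemin, with a median of 1.44, beside 38.7% higher, 22.6% lower and a median of 0.19 over all genes. Cdc14a, a phosphatase gene with a 3′ element in some transcripts, rose by 1.85 ± 0.16 (limma adjusted p = 6e-05), having entered only through libraries with hemin. Slc40a1, with the 5′ hairpin printed above, rose by 2.70 ± 0.31 (adjusted p = 0.000213), from 1.05 (1.18 and 0.91) to 13.1 FPKM (17.9 and 8.26). The ferritin genes Fth1 and Ftl1, named here because their hairpins are printed and after their values were seen, both rose by 1.44, to 2408 and 1292 FPKM for Fth1 in the Hemin libraries from 654 and 648 with DMSO. Set side by side, the 3 printed transcripts with a 5′ hairpin were higher with hemin and Tfrc with its 3′ hairpins was lower. Slc11a2 was lower in all 4 libraries without passing in this comparison. This grouping was made with the values in view, and the rest of the list did not all follow it. Epas1, with a 5′ hairpin, rose by 0.52 (limma adjusted p = 0.0256). Cdc14a, with a 3′ element, also rose, Cdc42bpa did not pass (−0.16), and 1 gene was lower. Any part of the hairpins in these levels was not tested. Leaving out Hemin replicate 1 gave 4 higher and 1 lower (40.8% and 27.3% of all genes), and with 4-OI present also 4 and 1 (33.3% and 24.2% of all genes).

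For the use of iron in mitochondria, 3 of 16 tested genes were higher and 3 lower with hemin, with a median of −0.14. That share was below the 61.3% called among all genes, whose median was 0.19. Hspa9, the mitochondrial chaperone that takes part in cluster transfer, rose by 1.06 ± 0.11 (limma adjusted p = 0.000109) and Fdxr, ferredoxin reductase, by 0.58 ± 0.13 (0.00568), while Iba57, a late assembly factor, fell by 1.03 ± 0.21 (0.0036). The numbers without Hemin replicate 1 were 2 higher and 5 lower, and with 4-OI present 2 and 3, again below the 68.1% and 57.5% of all genes called there. Of 4 genes of cytosolic iron chaperones, Pcbp1 was higher (0.23 ± 0.09, adjusted p = 0.049), and Ncoa4 (0.21, adjusted p = 0.208) and Pcbp2 (0.08, adjusted p = 0.6) did not pass. Leaving out Hemin replicate 1 gave 1 higher and 1 lower, and with 4-OI present 1 and 0. These counts too were below the shares of all genes called in the same comparisons.

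The genes whose levels ran most like those of Tfrc over the 8 libraries were Ube3c (Pearson r = 0.997 on log2 of FPKM + 1), Atp1b1 (0.994) and Zfp13 (0.993) among 9234 genes with a mean of at least 5 FPKM. Those most opposite were Adam8 (−0.995), Bag1 (−0.995) and Ccna2 (−0.993). Among the members, Ireb2 ran with Tfrc at 0.94, Slc11a2 at 0.64, Aco1 at 0.11 and Fbxl5 at −0.11, and Steap3 (−0.97), Trf (−0.96), Slc39a14 (−0.93), Slc25a28 (−0.93) and Slc25a37 (−0.89) ran against it. Slc25a37 was most like Ano6 (0.997), Pcf11 (0.997) and Smad3 (0.996). These are descriptions over 8 libraries that share the step between hemin and no hemin, and the values like Tfrc also share the position of Hemin replicate 1.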

How the data were processed

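The authors deposited 1 table of FPKM values for 19417 genes in 8 libraries, with 2 decimals; the submitters' processing notes name Bowtie2, RSEM and build mm8, with versions and annotation not given in the sources used here. No counts were used. Depth was estimated from the steps between low FPKM values (73.0% to 80.4% lay within 0.15 of a whole fragment), and it entered no test. Values were tested as log2(FPKM + 1), a scale that understates changes of low genes, for the 13746 genes with at least 1 FPKM in at least 2 libraries. The model (limma 3.58.1 under R 4.3.3, eBayes with trend) had a mean per group over all 8 libraries and 4 residual degrees of freedom, with two-sided Benjamini-Hochberg adjustment over all genes and a threshold of 0.05. All values after ± are standard errors unless marked SD. Each group has n = 2, and 2 against 2 libraries cannot reach 0.05 by exact permutation.

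Hairpins were read from GENCODE M21 transcripts with Python 3.11.15; that reference is of another build, so no genome coordinates are given. Deposited rows of 7 of the 10 genes also hold transcripts that the table marks as additional to the reference. In simulated data with 50 changed genes per fold size among 13746, hemin against DMSO recovered 30% at 1.5-fold, 74% at 2-fold and 98% at 4-fold, with 7 unchanged genes called. 4-OI against DMSO recovered 32%, 76% and 98%, with 7. Hemin plus 4-OI against hemin recovered 30%, 68% and 100%, with 10. The simulation gave all groups the same spread per gene and changed only genes with a DMSO log2(FPKM + 1) above 2. Steap3 and Slc25a37 lay below that level. The real Hemin pair was wider, at a median difference of 0.304 against 0.090 to 0.121 in the other pairs. These rates therefore do not tell what the comparisons with the Hemin pair could miss.

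The members, the lists and the tests were chosen with earlier results of these data known. Besides the members, the text names up to 3 genes of each list with the lowest p for hemin against DMSO, the 3 most and least like Tfrc and the 3 most like Slc25a37; any other gene named was picked with its values in view. The value of 1 list member is not reported here. Alternatives were a pseudocount of 0.1, no filter or one at 5 FPKM, TPM, median-of-ratios and quantile scaling, a replicate block, the compared groups alone, no trend, and each library left out in turn. The counts of the other lists without Hemin replicate 1 were added after seeing the data.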

Additional observations from a re-analysis of the deposited data

How the results depend on the processing

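For hemin against DMSO, 5 to 8 members were called in every alternative run, beside 6197 to 9387 of all genes tested. For hemin plus 4-OI against 4-OI, 4 members became 2 with quantile normalization and 7 in a fit of the compared groups alone, and 2 (without Hemin+4-OI replicate 2) to 8 (without either Hemin library) on leaving out 1 library. Leaving out 1 library gave 0 to 4 members and 0 to 4463 genes for hemin plus 4-OI against hemin, 0 to 3 members and 0 to 2579 genes for the interaction, and 0 to 2 genes for 4-OI against DMSO; the highest numbers of the first 2 came without Hemin replicate 2, and 5 genes each without Hemin replicate 1. With no filter 2 genes were called in each of the first 2, and with no intensity trend 2 in the first. The cause was not tested. Replicate numbers did not pair the samples (r from −0.09 to 0.05 over 6 pairs of groups), and a replicate block left 7 and 3 members and 8261 and 7699 genes in the 2 hemin comparisons; it ended the call of Slc39a14 with 4-OI present (adjusted p = 0.0564). Steap3 has no value with the filter at 5 FPKM.

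Among the members, signs turned only in values that had not passed the threshold. Fbxl5 for hemin against DMSO turned to −0.16 with median-of-ratios scaling, −0.063 with TPM and −0.0021 with quantile normalization. Aco1 for hemin plus 4-OI against 4-OI turned to −0.15, −0.11 and −0.060 under the same 3 scalings. For 4-OI against DMSO, TPM gave 0.011 for Slc11a2 and 0.0053 for Ireb2, and Slc25a28 gave −0.0065 by median-of-ratios and −0.0047 by quantile normalization. On leaving out 1 library, Aco1 ran from −0.32 to 0.068 for hemin against DMSO, −0.11 to 0.12 for hemin plus 4-OI against 4-OI, −0.20 to 0.030 for 4-OI against DMSO, −0.15 to 0.24 for hemin plus 4-OI against hemin and −0.067 to 0.32 for the interaction. Fbxl5 ran from −0.21 to 0.013 for hemin plus 4-OI against 4-OI and from −0.19 to 0.036 for hemin plus 4-OI against hemin, where Trf ran from −1.24 to 0.12. Slc25a28 ran from −0.23 to 0.022 for the interaction. For 4-OI against DMSO the ranges were −0.090 to 0.077 for Slc11a2, −0.075 to 0.050 for Ireb2, −0.078 to 0.027 for Steap3, −0.11 to 0.14 for Slc25a28, −0.066 to 0.19 for Slc39a14 and −0.076 to 0.50 for Trf.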
